A study of Mus musculus with 24 samples.

Results

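The change in the effect of Hand2 between day 2 and day 7 of cardiac reprogramming was read as a difference of differences: the GHMT over GMT difference at day 7 minus the same difference at day 2. It used 12 of the 24 libraries of the series, 3 in each of 4 groups, and all 17576 genes that passed a filter on low counts, of 47967 in the count table. All libraries were RNA-seq of mouse embryonic fibroblasts (MEFs), connective-tissue cells of C57BL/6 embryos at E13.5-14.5, which were transduced with retroviruses and then kept in induction medium. GHMT cells received Gata4, Hand2, Mef2c and Tbx5, and GMT cells received Gata4, Mef2c and Tbx5 without Hand2, as these letters usually stand. RNA was taken 2 or 7 days after transduction, so the groups were GHMT and GMT at day 2 and GHMT and GMT at day 7. The remaining libraries (AGHMT, which adds Akt1, and Mock) entered only the estimate of spread. These were whole transduced cultures with no sorting step in the labels, so each level is a mean over cells that did and did not take up every factor, and fewer cells of a type and less RNA per cell cannot be told apart. The labels do not say that the replicates were separate cultures, and the p-values below are about the spread of these 3 libraries per group, part or all of which may be technical.

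Hand2 is a basic helix-loop-helix transcription factor needed for the growth of the right ventricle, for limb and branchial arch patterning and for noradrenergic differentiation of sympathetic neurons. It binds DNA with E protein partners at E-boxes, hexamers of the form CANNTG, and the version CATCTG is one preferred by Hand factors. Gata4 is a zinc finger factor that binds GATA motifs such as AGATAA, Mef2c is a MADS-box factor of muscle genes, and Tbx5 is a T-box factor of the atria, the left ventricle and the forelimb; together they can push fibroblasts towards heart muscle, and Hand2 was added to this set in later cocktails.

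These 4 patterns were defined by both days at once. A gene was early only if GHMT and GMT cells differed at least 2-fold with an adjusted p under 0.05 at day 2 but not at day 7, late only in the opposite case, and in both cases the difference of differences also had to pass the adjusted p. Lasting genes differed at least 2-fold in the same direction at both days, and reversed genes differed in opposite directions at the 2 days, at least 2-fold at 1 of them. The 250 bases upstream of the annotated start are shown for a leading gene of each pattern that had an entry among the RefSeq promoters on GRCm38.p6, 5′ to 3′ on the strand of the gene. Capitals mark an E-box or the GATA hexamer named above, on either strand; every CATCTG is also an E-box. Fndc1 stands for the early pattern (chr17:7827303-7827552, minus strand), Padi2 for the late one (chr4:140906110-140906359, plus strand), Fxyd6 for the lasting one (chr9:45369935-45370184, plus strand) and H2-Q10 for the reversed one (chr17:35469839-35470088, plus strand).
Fndc1: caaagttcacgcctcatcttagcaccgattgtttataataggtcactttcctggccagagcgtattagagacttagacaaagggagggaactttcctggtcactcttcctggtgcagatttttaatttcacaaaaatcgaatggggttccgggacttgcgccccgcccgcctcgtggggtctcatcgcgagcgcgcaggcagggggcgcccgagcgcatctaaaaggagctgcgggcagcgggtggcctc
Padi2: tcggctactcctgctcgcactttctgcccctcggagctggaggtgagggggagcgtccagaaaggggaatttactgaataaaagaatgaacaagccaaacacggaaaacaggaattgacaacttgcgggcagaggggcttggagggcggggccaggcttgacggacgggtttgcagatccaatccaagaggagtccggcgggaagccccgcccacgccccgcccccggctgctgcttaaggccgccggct
Fxyd6: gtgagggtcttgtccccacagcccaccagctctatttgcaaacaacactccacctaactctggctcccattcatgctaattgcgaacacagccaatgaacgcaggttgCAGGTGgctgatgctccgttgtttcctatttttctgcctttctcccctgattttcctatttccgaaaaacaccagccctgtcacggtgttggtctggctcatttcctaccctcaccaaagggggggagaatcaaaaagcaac
H2-Q10: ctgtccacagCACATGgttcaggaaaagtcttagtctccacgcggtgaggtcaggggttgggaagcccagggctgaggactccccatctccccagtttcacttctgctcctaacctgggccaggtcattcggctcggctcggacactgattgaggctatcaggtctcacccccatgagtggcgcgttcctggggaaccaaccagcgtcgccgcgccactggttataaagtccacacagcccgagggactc

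The Fndc1 and Padi2 windows held none of the hexamers, and the Fxyd6 and H2-Q10 windows held 1 E-box each. Of promoters with an entry, an E-box was found in 62.5% of 291 early only, 70.3% of 128 late only, 66.6% of 589 lasting and 72.2% of 36 reversed genes, beside 58% of the 11997 promoters of all tested genes. CATCTG was found in 9.28%, 13.3%, 16.1% and 16.7% of the same sets, beside 10.4% of all, and AGATAA in 6.87%, 4.69%, 9% and 16.7%, beside 6.07%. These shares are descriptions of letters in a window and carry no test.

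The 12 libraries held 30579135 to 37495178 counts. Levels are CPM, read counts scaled to library size with TMM factors, differences are log2 fold changes of GHMT over GMT ± SE, and n was 3 libraries in every group. The SE was worked back from the test, as the absolute log2 fold change over the square root of the F value. Confidence intervals use this SE. For large folds it is approximate: Trim55 had 0.14 at day 2, 0.12 at day 7 and 0.33 for the difference of differences. At day 2, 7872 of 17576 genes (44.8%) were called at an adjusted p under 0.05, 4055 higher (23.1%) and 3817 lower (21.7%) in GHMT cells. At day 7, 6598 genes (37.5%) were called, 3290 higher (18.7%) and 3308 lower (18.8%). With the 2-fold minimum, 1720 genes (9.79%) were called at day 2, 5.31% of all tested higher and 4.48% lower. The same minimum left 1427 genes (8.12%) at day 7, 4.98% higher and 3.14% lower. The difference of differences was called for 2925 genes (16.6%), of which 1332 (7.58% of all tested) were higher, meaning that GHMT over GMT stood higher at day 7 than at day 2, and 1593 (9.06%) were lower. GHMT cells changed more than GMT cells between the days in 1512 of the 2925 genes, and GMT cells changed more in the other 1413. Across the 17576 genes the day 7 and day 2 differences, which share no library, correlated with a Pearson r of 0.73 and a Spearman rho of 0.597; genes are not independent replicates, and the SD of the log2 fold changes was 0.786 at day 2, 0.711 at day 7 and 0.555 for the difference of differences.

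The factors themselves were read first. Hand2 had 1143, 1169 and 1188 CPM in GHMT libraries at day 2, against 4.03, 3.98 and 3.83 CPM in GMT libraries. At day 7, Hand2 had 979.9, 1019 and 935 CPM in GHMT libraries, against 3.08, 3.46 and 3.14 CPM in GMT libraries. GHMT libraries stood far above GMT libraries at both days, and the Hand2 excess was 8.21 ± 0.07 at day 2 and 8.24 ± 0.07 at day 7, with a difference of differences of 0.04 ± 0.10 (adjusted p = 0.865). Gene counts do not separate viral from endogenous transcripts. Gata4 had 1427, 1502 and 1508 CPM in GHMT libraries at day 2, against 1168, 1142 and 1118 CPM in GMT libraries. At day 7, Gata4 had 1094, 1241 and 1091 CPM in GHMT libraries, against 1026, 1048 and 992 CPM in GMT libraries. Gata4 was therefore higher in GHMT cells by 0.37 at day 2 and 0.16 at day 7, and its difference of differences of -0.21 ± 0.07 (adjusted p = 0.0296) lost its call when any 1 of 8 of the 12 libraries was left out or without the filter on low counts. Mef2c was higher in GHMT cells by 0.13 ± 0.05 at day 2 and 0.26 ± 0.05 at day 7, and Tbx5 by 0.19 ± 0.05 and 0.24 ± 0.05; neither difference of differences was called (0.14 ± 0.07 (adjusted p = 0.175) for Mef2c and 0.05 ± 0.07 (adjusted p = 0.745) for Tbx5). Akt1, which neither cocktail contains, had a difference of differences of -0.10 ± 0.06 (adjusted p = 0.317). The delivered factors thus differed between GHMT and GMT cells at both days by at most 0.37 on the log2 scale, Hand2 apart, and their part in the results below was not tested.

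Lasting differences outnumbered the other patterns. The lasting pattern held 891 genes, 549 higher and 342 lower in GHMT cells, and 297 of them also had a called difference of differences, with 195 larger at day 2 and 102 larger at day 7. The early only pattern held 418 genes, 203 higher and 215 lower, and the late only pattern 210 genes, 128 higher and 82 lower. Reversed genes numbered 49, of which 12 were higher in GHMT cells at day 2 and lower at day 7 and 37 the other way, and 11 were at least 2-fold apart at both days. A further 677 genes passed the 2-fold call at 1 day alone and had no called difference of differences, so for these the data did not separate early or late from lasting. Early only did not mean absent at day 7: 256 of the 418 genes were still called in the same direction under 2-fold, and for 305 the 95% confidence interval of the day 7 difference lay within 2-fold. Likewise, 106 of the 210 late only genes were already called in the same direction at day 2. The called difference of differences of another 1951 genes belonged to none of the patterns, since these genes did not pass the 2-fold call at either day.

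**Figure D1:**
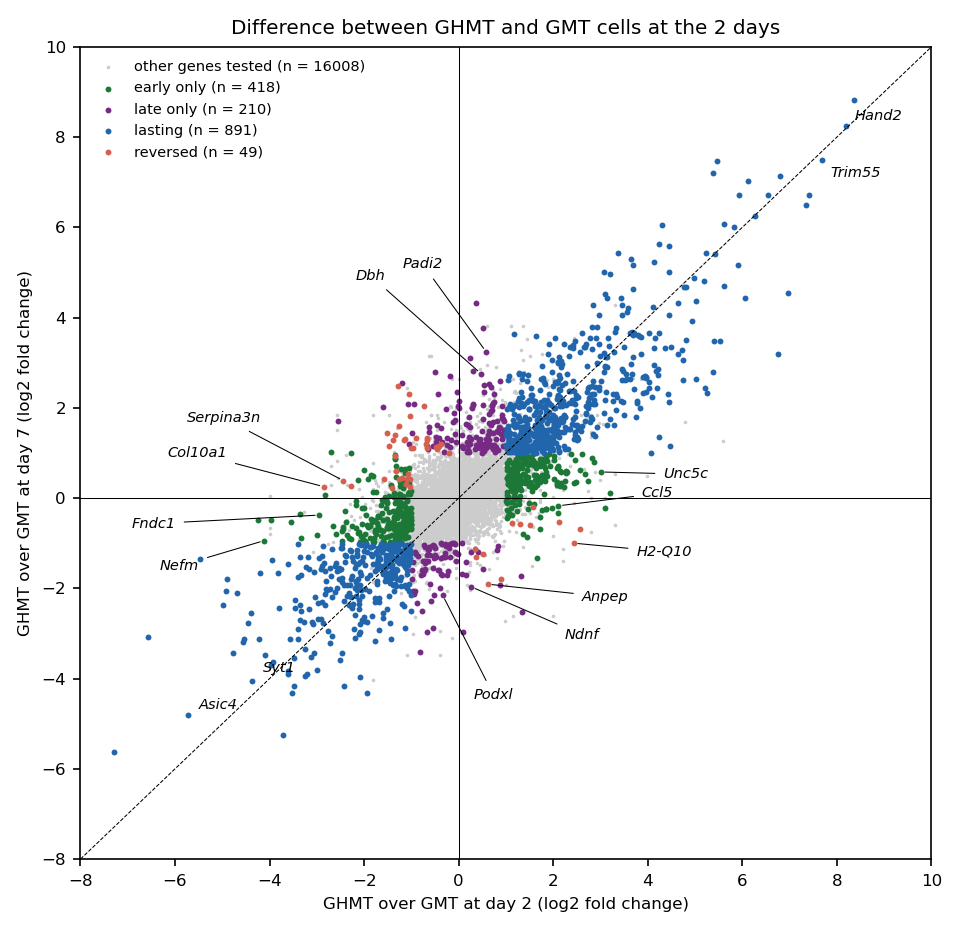
Each point is 1 of the 17576 tested genes, with its log2 fold change of GHMT over GMT at day 2 on the x axis and at day 7 on the y axis, coloured by pattern; the dashed line marks equal differences. The 891 lasting genes lie on and to either side of the dashed line, and the 49 reversed genes in the upper left and lower right. The 418 early only genes lie mostly closer to the x axis, with median absolute log2 fold changes of 1.36 at day 2 and 0.52 at day 7. The 210 late only genes lie mostly closer to the y axis, with medians of 0.53 and 1.42.

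Among early only genes higher in GHMT cells, Unc5c, a netrin receptor of axon guidance, led. It had 59.1, 51.5 and 44.6 CPM in GHMT libraries at day 2, against 5.81, 6.005 and 7.57 CPM in GMT libraries. At day 7, Unc5c had 12.02, 10.03 and 12.6 CPM in GHMT libraries, against 6.29, 7.34 and 9.38 CPM in GMT libraries. All 3 GHMT libraries stood above all 3 GMT libraries at both days, but the difference was 3.005 ± 0.16 at day 2 and 0.58 ± 0.17 at day 7, a difference of differences of -2.42 ± 0.24 (adjusted p = 5.88e-08). Ccl5, a chemokine that draws T cells, had 14.2, 14.4 and 20.6 CPM in GHMT libraries at day 2, against 4.73, 3.38 and 3.21 CPM in GMT libraries. At day 7, Ccl5 had 1.68, 2.83 and 1.84 CPM in GHMT libraries, against 2.403, 2.63 and 2.18 CPM in GMT libraries. Its groups were apart at day 2 alone and overlapped at day 7, and the difference of differences was -2.28 ± 0.33 (adjusted p = 1.73e-05). Nxf7, of the nuclear RNA export factor family, had 13.7, 15.4 and 14.2 CPM in GHMT libraries at day 2, against 2.02, 2.28 and 2.49 CPM in GMT libraries. At day 7, Nxf7 had 7.93, 8.54 and 8.17 CPM in GHMT libraries, against 4.87, 5.57 and 6.47 CPM in GMT libraries. Here the groups stayed apart at day 7 with a smaller gap, at 2.68 ± 0.12 and then 0.54 ± 0.11 (difference of differences, adjusted p = 2.18e-09). Tgtp2, an interferon-induced GTPase with a near-identical neighbour, differed by 1.36 ± 0.22 at day 2 and -0.80 ± 0.37 at day 7, where the adjusted p was 0.0958; reads shared with that neighbour make its level uncertain.

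Among early only genes lower in GHMT cells, the neurofilament medium chain gene Nefm came first. Nefm had 1.78, 1.32 and 1.73 CPM in GHMT libraries at day 2, against 30.4, 27.6 and 25.9 CPM in GMT libraries. At day 7, Nefm had 9.92, 9.03 and 10.3 CPM in GHMT libraries, against 20.1, 18.4 and 17.6 CPM in GMT libraries. GHMT libraries stood below GMT libraries at both days, by -4.11 ± 0.11 at day 2 and -0.94 ± 0.08 at day 7, and the difference of differences was 3.17 ± 0.14 (adjusted p = 7.64e-14). The annotated span of Nefm holds Nefl on the opposite strand, so the reads of Nefm are uncertain to that extent. Fndc1, a secreted protein with fibronectin type III domains, had 8.13, 8.18 and 6.696 CPM in GHMT libraries at day 2, against 60.1, 56.6 and 60.8 CPM in GMT libraries. At day 7, Fndc1 had 13.3, 10.1 and 13.1 CPM in GHMT libraries, against 15.3, 13.5 and 18.3 CPM in GMT libraries. The gap of -2.95 ± 0.14 at day 2 stood at -0.38 ± 0.14 at day 7, with the GMT level itself lower at day 7 than at day 2 and the difference of differences at 2.57 ± 0.20 (adjusted p = 1.12e-09). Ces2e, a carboxylesterase, had 14.4, 14.1 and 13.8 CPM in GHMT libraries, against 48.2, 50.7 and 49.5 CPM in GMT libraries at day 2, and its groups overlapped at day 7, with 12.9, 12.4 and 12.2 CPM in GHMT libraries, against 12.4, 12.5 and 9.43 CPM in GMT libraries. Scara5, a ferritin receptor, differed by -2.03 ± 0.13 at day 2 and by -0.22 ± 0.14 at day 7, where it was not called (adjusted p = 0.254).

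Late only genes higher in GHMT cells were led by Padi2, an enzyme that turns protein arginine into citrulline, and by Dbh. Padi2 had 4.53, 4.24 and 4.03 CPM in GHMT libraries at day 2, against 3.08, 3.04 and 2.404 CPM in GMT libraries. At day 7, Padi2 had 7.06, 7.04 and 7.22 CPM in GHMT libraries, against 0.949, 0.685 and 0.618 CPM in GMT libraries. The groups did not overlap at either day, and the gap was 0.58 ± 0.13 at day 2 and 3.25 ± 0.16 at day 7 (difference of differences 2.66 ± 0.22 (adjusted p = 3.09e-09)). Dbh, dopamine beta-hydroxylase, makes noradrenaline and is known to depend on Hand2 in sympathetic neurons; it had 11.04, 9.51 and 9.76 CPM in GHMT libraries at day 2, against 7.21, 7.72 and 6.92 CPM in GMT libraries. At day 7, Dbh had 25.6, 27.4 and 24.8 CPM in GHMT libraries, against 3.56, 4.11 and 3.79 CPM in GMT libraries. The level stood higher at day 7 than at day 2 in GHMT cells and lower in GMT cells, and the difference of differences was 2.29 ± 0.12 (adjusted p = 8.49e-13). Plekha6, a pleckstrin homology domain protein, had 17.98, 18.1 and 14.5 CPM in GHMT libraries at day 2, against 18.4, 18.9 and 16.8 CPM in GMT libraries. At day 7, Plekha6 had 50.7, 40.3 and 48.97 CPM in GHMT libraries, against 11.4, 12.2 and 14.1 CPM in GMT libraries. Its groups overlapped at day 2 and were 1.89 ± 0.10 apart at day 7, a difference of differences of 1.996 ± 0.14 (adjusted p = 1.67e-10). Izumo1r, known as the sperm receptor Juno of the egg, stood 0.65 ± 0.11 higher at day 2 and 2.54 ± 0.12 higher at day 7.

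Late only genes lower in GHMT cells included Ndnf, a secreted neurotrophic factor, and Podxl, a sialomucin. Ndnf had 6.97, 6.82 and 5.797 CPM in GHMT libraries at day 2, against 5.79, 5.41 and 5.05 CPM in GMT libraries. At day 7, Ndnf had 4.54, 4.89 and 5.81 CPM in GHMT libraries, against 20.8, 19.99 and 18.5 CPM in GMT libraries. The GHMT level differed little between the days while the GMT level stood higher at day 7, so that the gap was 0.27 ± 0.13 at day 2 and -1.97 ± 0.11 at day 7 (difference of differences -2.23 ± 0.17 (adjusted p = 1.4e-09)). Podxl had 1.78, 1.72 and 1.399 CPM in GHMT libraries at day 2, against 2.09, 1.95 and 2.17 CPM in GMT libraries. At day 7, Podxl had 1.99, 2.23 and 2.95 CPM in GHMT libraries, against 8.96, 9.37 and 13.2 CPM in GMT libraries. It had the same form, with a difference of differences of -1.81 ± 0.26 (adjusted p = 1.3e-05). Tmem158, a membrane protein induced by Ras signalling, had 27.9, 29.9 and 30.1 CPM in GHMT libraries at day 2, against 51.03, 50.1 and 48.9 CPM in GMT libraries. At day 7, Tmem158 had 8.99, 9.52 and 8.04 CPM in GHMT libraries, against 50.1, 49.3 and 50.5 CPM in GMT libraries. In this gene the GMT level was nearly the same at both days and the GHMT level was lower at day 7, with gaps of -0.77 ± 0.06 and -2.49 ± 0.07. Kcnj3, the fourth of this set, is given with the ion channels.

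Lasting genes were chosen for the size of the smaller of both differences, and Hand2 itself ranked first. Trim55, a muscle RING finger protein of the sarcomere, had 46.8, 45.6 and 41.5 CPM in GHMT libraries at day 2, against 0.258, 0.226 and 0.148 CPM in GMT libraries. At day 7, Trim55 had 87.1, 84.1 and 75.7 CPM in GHMT libraries, against 0.623, 0.428 and 0.322 CPM in GMT libraries. Its gap was 7.69 ± 0.14 at day 2 and 7.49 ± 0.12 at day 7, and the difference of differences was not called (-0.19 ± 0.33 (adjusted p = 0.795)). Fxyd6, a regulator of the sodium pump whose upstream window is printed above, had 123, 115 and 121 CPM in GHMT libraries at day 2, against 1.29, 0.677 and 1.22 CPM in GMT libraries. At day 7, Fxyd6 had 333, 356 and 331 CPM in GHMT libraries, against 2.43, 2.43 and 2.31 CPM in GMT libraries. The level stood higher at day 7 under both cocktails and the gap stayed, at 6.803 ± 0.11 and 7.15 ± 0.10 (difference of differences 0.35 ± 0.20 (adjusted p = 0.288)). Sfrp5, a secreted Wnt antagonist, had 14.9, 13.7 and 14.3 CPM in GHMT libraries at day 2, against 0.0517, 0.113 and 0.0891 CPM in GMT libraries. At day 7, Sfrp5 had 23.1, 22.6 and 21.8 CPM in GHMT libraries, against 0.208, 0.285 and 0.242 CPM in GMT libraries; the GMT levels rest on a few reads per library, and no fold is given. On the lower side, Nt5e (CD73), which makes adenosine at the cell surface, had 13.9, 13.2 and 13.6 CPM in GHMT libraries at day 2, against 201, 209 and 208 CPM in GMT libraries. At day 7, Nt5e had 41.8, 36.6 and 40.8 CPM in GHMT libraries, against 477, 501 and 505 CPM in GMT libraries. Its gap of -3.92 ± 0.06 at day 2 was -3.64 ± 0.05 at day 7, a small but called difference of differences of 0.29 ± 0.07 (adjusted p = 0.0077). Ptgfr, the prostaglandin F receptor, was lower in GHMT cells by almost the same amount at both days, with log2 fold changes of -3.49 ± 0.10 and -3.55 ± 0.10 and a difference of differences of -0.06 ± 0.15 (adjusted p = 0.844). Syt1, the calcium sensor of synaptic vesicles, stood at -4.36 ± 0.17 and -4.05 ± 0.15, and Asic4, of the acid-sensing channel family, at -5.73 ± 0.22 and -4.81 ± 0.20; neither difference of differences was called (adjusted p = 0.543 and 0.193). In GHMT libraries at day 2, Syt1 had 0.727, 0.431 and 0.566 CPM and Asic4 had 0.264, 0.331 and 0.0666 CPM. At such levels, as for Trim55 in GMT libraries, the size of a fold is imprecise.

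Reversed genes that were higher in GHMT cells at day 2 and lower at day 7 were led by H2-Q10, a secreted class I histocompatibility molecule. H2-Q10 had 4.99, 4.37 and 6.03 CPM in GHMT libraries at day 2, against 0.827, 1.24 and 0.772 CPM in GMT libraries. At day 7, H2-Q10 had 2.04, 2.31 and 1.61 CPM in GHMT libraries, against 5.37, 3.54 and 3.17 CPM in GMT libraries. Every GHMT library was above every GMT library at day 2 and below every one at day 7, at 2.44 ± 0.25 and -0.997 ± 0.23 (difference of differences -3.43 ± 0.34 (adjusted p = 6.59e-08)); it has similar copies in its cluster, so its reads are uncertain. Anpep, aminopeptidase N, had 80.6, 71.8 and 65.9 CPM in GHMT libraries at day 2, against 49.1, 44.04 and 49.04 CPM in GMT libraries. At day 7, Anpep had 12.2, 11.3 and 12.5 CPM in GHMT libraries, against 46.6, 41.7 and 46.3 CPM in GMT libraries. The GMT level barely differed between the days while the GHMT level stood far lower at day 7, and the gap was 0.62 ± 0.08 and then -1.91 ± 0.09 (difference of differences -2.52 ± 0.12 (adjusted p = 2.63e-13)). Unc45b, the chaperone that folds striated muscle myosin, had 49.4, 45.9 and 45.1 CPM in GHMT libraries at day 2, against 15.8, 15.6 and 15.9 CPM in GMT libraries. At day 7, Unc45b had 70.2, 71.2 and 65.7 CPM in GHMT libraries, against 74.7, 80.3 and 83.5 CPM in GMT libraries. GHMT cells led at day 2, and by day 7 GMT cells stood slightly above them, at -0.20 ± 0.05. Slfn5, an interferon-inducible Schlafen gene, differed by 1.296 ± 0.16 at day 2 and -0.58 ± 0.16 at day 7.

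In the opposite direction, Col10a1, the collagen of hypertrophic cartilage, came first. Col10a1 had 72.1, 61.6 and 65.03 CPM in GHMT libraries at day 2, against 476, 507 and 454 CPM in GMT libraries. At day 7, Col10a1 had 134, 127 and 129 CPM in GHMT libraries, against 109, 112 and 106 CPM in GMT libraries. The difference was -2.85 ± 0.08 at day 2 and a slight 0.25 ± 0.07 at day 7, and the difference of differences was 3.11 ± 0.10 (adjusted p = 2.83e-16). Serpina3n, a secreted serine protease inhibitor, had 190.5, 202 and 222 CPM in GHMT libraries at day 2, against 1041, 1089 and 1200 CPM in GMT libraries. At day 7, Serpina3n had 683, 616 and 704 CPM in GHMT libraries, against 469, 501 and 559.6 CPM in GMT libraries. Its gap was -2.44 ± 0.10 at day 2 and 0.39 ± 0.10 at day 7, again without overlap at either day. Gpr83, a G protein-coupled receptor, was more than 2-fold apart in each direction, with 36.7, 39.2 and 33.8 CPM in GHMT libraries at day 2, against 80.1, 81.6 and 78.8 CPM in GMT libraries. At day 7, Gpr83 had 39.7, 35.97 and 33.2 CPM in GHMT libraries, against 13.6, 14.7 and 15.7 CPM in GMT libraries. The GHMT level was about the same at both days and the GMT level was lower at day 7, so the sign of the gap turned (-1.13 ± 0.07 and 1.31 ± 0.07). Sbsn, suprabasin, a protein of the epidermis, stood at -1.58 ± 0.08 at day 2 and 0.42 ± 0.07 at day 7.

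**Figure D2:**
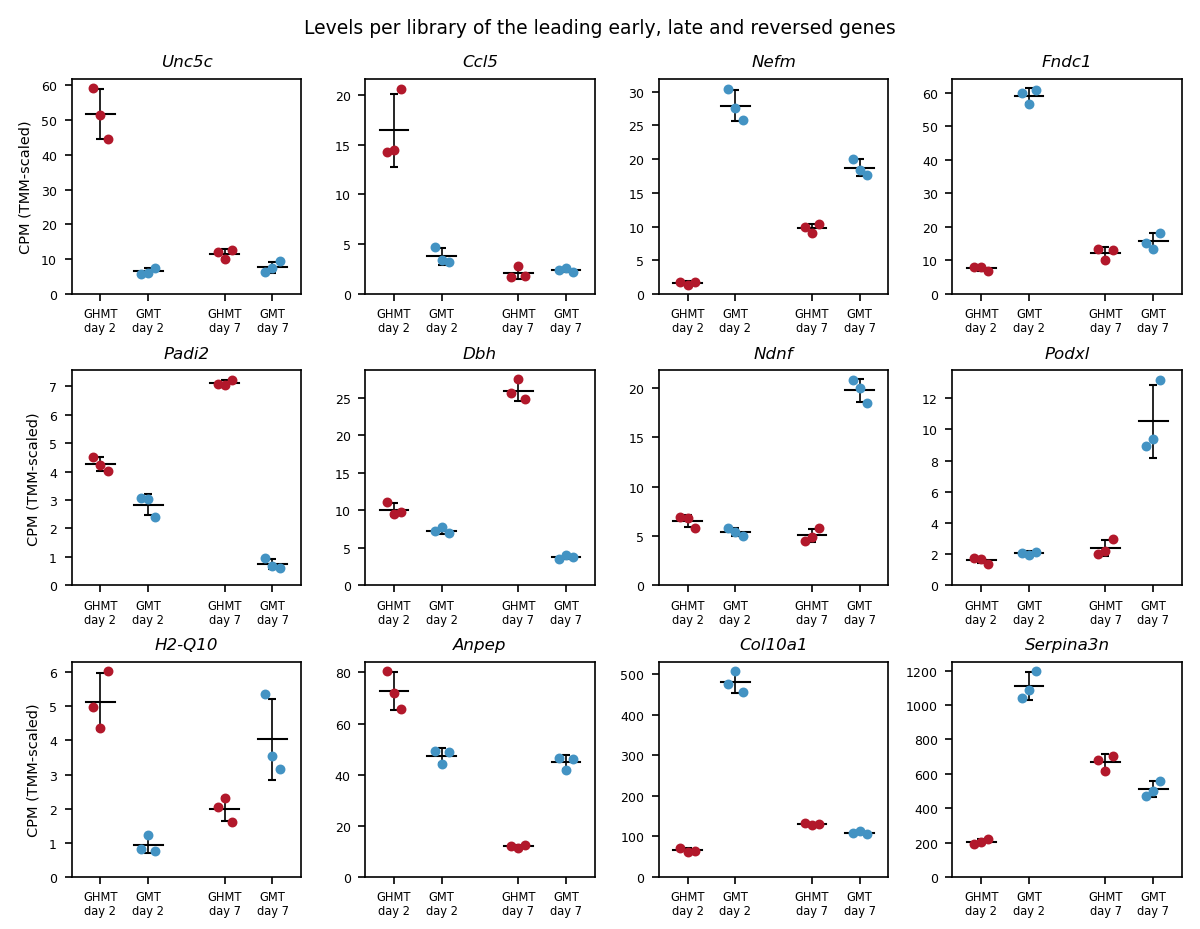
TMM-scaled CPM of the 2 leading early only, late only and reversed genes in each direction, in GHMT (red) and GMT (blue) libraries at day 2 and day 7; points are the 3 libraries of a group, the long bar is their mean and the error bar their SD. Unc5c, Ccl5, Nefm and Fndc1 separate mainly at day 2, Padi2, Dbh, Ndnf and Podxl mainly at day 7, and H2-Q10, Anpep, Col10a1 and Serpina3n change sides.

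The genes of the heart muscle machinery split between both directions. Of the 40 sarcomere genes, all tested, the difference of differences was called for 8 higher and 15 lower, and the median log2 fold change was 0.01 at day 2 and -0.05 at day 7, beside -0.00036 and -0.0034 over all tested genes; the 23 called are 57.5% of the list, beside 16.6% of all genes; the 8 became 5 without GHMT day 2 replicate 3, without GMT day 2 replicate 2, or without the 2 of these 12 libraries furthest from their groups together (GHMT day 2 replicate 3 and GHMT day 7 replicate 2). Myh6, the fast cardiac myosin heavy chain, had 209, 206 and 168 CPM in GHMT libraries at day 2, against 14.99, 13.7 and 14.4 CPM in GMT libraries. At day 7, Myh6 had 974, 811 and 876 CPM in GHMT libraries, against 261, 258 and 242 CPM in GMT libraries. Both cocktails stood higher at day 7, GMT cells by the larger ratio, so that the GHMT lead was 3.76 ± 0.10 at day 2 and 1.81 ± 0.08 at day 7 (difference of differences -1.95 ± 0.12 (adjusted p = 3.92e-11)); Myh6 has a similar neighbour, Myh7, and its reads are uncertain to that extent. Tnni1, the slow troponin I of embryonic heart, had 534, 491 and 543 CPM in GHMT libraries at day 2, against 34.9, 35.05 and 35.6 CPM in GMT libraries. At day 7, Tnni1 had 416, 434 and 399.5 CPM in GHMT libraries, against 65.7, 64.8 and 62.4 CPM in GMT libraries. It kept a lead of 3.89 ± 0.09 and 2.69 ± 0.09, smaller at day 7 (difference of differences -1.198 ± 0.12 (adjusted p = 4.94e-08)). Actc1, cardiac alpha-actin, ran the other way, with 95.4, 89.7 and 84.98 CPM in GHMT libraries at day 2, against 336, 339 and 320.0 CPM in GMT libraries. At day 7, Actc1 had 901, 889 and 838 CPM in GHMT libraries, against 1387, 1339 and 1331 CPM in GMT libraries. It was lower in GHMT cells at both days, and the deficit of -1.88 ± 0.07 at day 2 was -0.63 ± 0.07 at day 7. Smpx, a small protein of striated muscle, was level at day 2 (0.00 ± 0.06) and lower in GHMT cells at day 7 (-0.70 ± 0.06).

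Calcium handling genes and ion channels, 35 tested, had 8 members higher and 7 lower for the difference of differences (22.9% and 20% of the list, beside 7.58% and 9.06% of all genes). The 7 became 12 when only the 12 libraries were fitted and 11 without AGHMT day 2 replicate 3. Casq2, the calcium buffer of the sarcoplasmic reticulum, had 1705, 1677 and 1647 CPM in GHMT libraries at day 2, against 55.99, 61.04 and 61.1 CPM in GMT libraries. At day 7, Casq2 had 2441, 2291 and 2257 CPM in GHMT libraries, against 202, 213 and 198 CPM in GMT libraries. The GHMT lead was 4.82 ± 0.05 at day 2 and 3.51 ± 0.05 at day 7 (difference of differences -1.31 ± 0.07 (adjusted p = 6.57e-13)). Pln, phospholamban, the brake of the calcium pump, had 16.1, 16.2 and 17.2 CPM in GHMT libraries at day 2, against 2.22, 2.31 and 2.14 CPM in GMT libraries. At day 7, Pln had 12.2, 13.5 and 13.4 CPM in GHMT libraries, against 4.78, 5.94 and 4.43 CPM in GMT libraries. Its lead was likewise smaller at day 7 (2.89 ± 0.10 and 1.37 ± 0.09). Atp2a2, the calcium pump itself, had 1538, 1511 and 1370 CPM in GHMT libraries at day 2, against 1310, 1305 and 1314 CPM in GMT libraries. At day 7, Atp2a2 had 1764, 1587 and 1699 CPM in GHMT libraries, against 2407, 2463 and 2484 CPM in GMT libraries. GHMT cells stood slightly above GMT cells at day 2 and below them at day 7, with a difference of differences of -0.71 ± 0.07 (adjusted p = 1.07e-07). Hcn4, the pacemaker channel of the sinoatrial node, was chosen after its values were seen and had 451, 419 and 365 CPM in GHMT libraries at day 2, against 32.9, 31.01 and 34.6 CPM in GMT libraries. At day 7, Hcn4 had 462, 354 and 425 CPM in GHMT libraries, against 10.1, 11.1 and 10.2 CPM in GMT libraries. GHMT libraries were alike at both days and GMT libraries were lower at day 7, so the lead stood at 3.65 ± 0.14 and then 5.303 ± 0.16 (difference of differences 1.66 ± 0.19 (adjusted p = 8.95e-07)). Kcnj3, a subunit of the acetylcholine-gated potassium channel of atria and node, had 4.59, 4.41 and 4.83 CPM in GHMT libraries at day 2, against 3.95, 4.23 and 4.16 CPM in GMT libraries. At day 7, Kcnj3 had 2.16, 2.42 and 2.07 CPM in GHMT libraries, against 5.81, 6.65 and 5.35 CPM in GMT libraries. Its deficit was late only (-1.58 ± 0.17 (adjusted p = 3.49e-07) for the difference of differences).

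Among 32 tested cardiac transcription regulators, 1 was higher and 9 were lower for the difference of differences (3.12% and 28.1% of the list, beside 7.58% and 9.06% of all genes). The 1 was Tbx2, a T-box repressor of the non-chamber myocardium, with 38.1, 34.3 and 35.9 CPM in GHMT libraries at day 2, against 73.6, 73.2 and 70.7 CPM in GMT libraries. At day 7, Tbx2 had 60.9, 57.8 and 60.6 CPM in GHMT libraries, against 80.9, 84.4 and 87.3 CPM in GMT libraries. Its deficit in GHMT cells was -1.01 ± 0.05 at day 2 and -0.49 ± 0.05 at day 7 (difference of differences 0.51 ± 0.07 (adjusted p = 5.59e-06)). Of those that were lower, Smarcd3, a BAF chromatin subunit of the heart, stood at -0.19 ± 0.04 and -0.56 ± 0.04, Foxc1 at 0.96 ± 0.09 and 0.19 ± 0.10, and Hopx, a homeodomain-only protein, at -0.20 ± 0.13 and -1.098 ± 0.12, day 2 first. The 16 atrial and natriuretic genes had 3 members higher and 6 lower (18.8% and 37.5% of the list, beside 7.58% and 9.06% of all genes). The 3 were Sln, sarcolipin of the atrial calcium pump (0.98 ± 0.13 (adjusted p = 4.65e-06)), Gja5, the connexin of atria and conduction system (0.54 ± 0.10 (adjusted p = 0.000288)), and Nppa, atrial natriuretic peptide (0.64 ± 0.13 (adjusted p = 0.000677)). Sln and Nppa were lower in GHMT cells at both days, by -1.97 and -0.99 at day 2 and -0.98 and -0.36 at day 7 on the log2 scale, while Gja5 was higher at both (1.05 and 1.59). Nppb, brain natriuretic peptide, had 20.6, 23.7 and 26.3 CPM in GHMT libraries at day 2, against 10.3, 9.98 and 11.5 CPM in GMT libraries. At day 7, Nppb had 135, 157 and 139 CPM in GHMT libraries, against 114, 112 and 93.6 CPM in GMT libraries. Its GHMT lead was smaller at day 7 (-0.72 ± 0.13 (adjusted p = 0.000251)). Corin, the protease that activates atrial natriuretic peptide, changed sides, at 0.49 ± 0.07 and -0.24 ± 0.07, under 2-fold at both days.

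**Figure D3:**
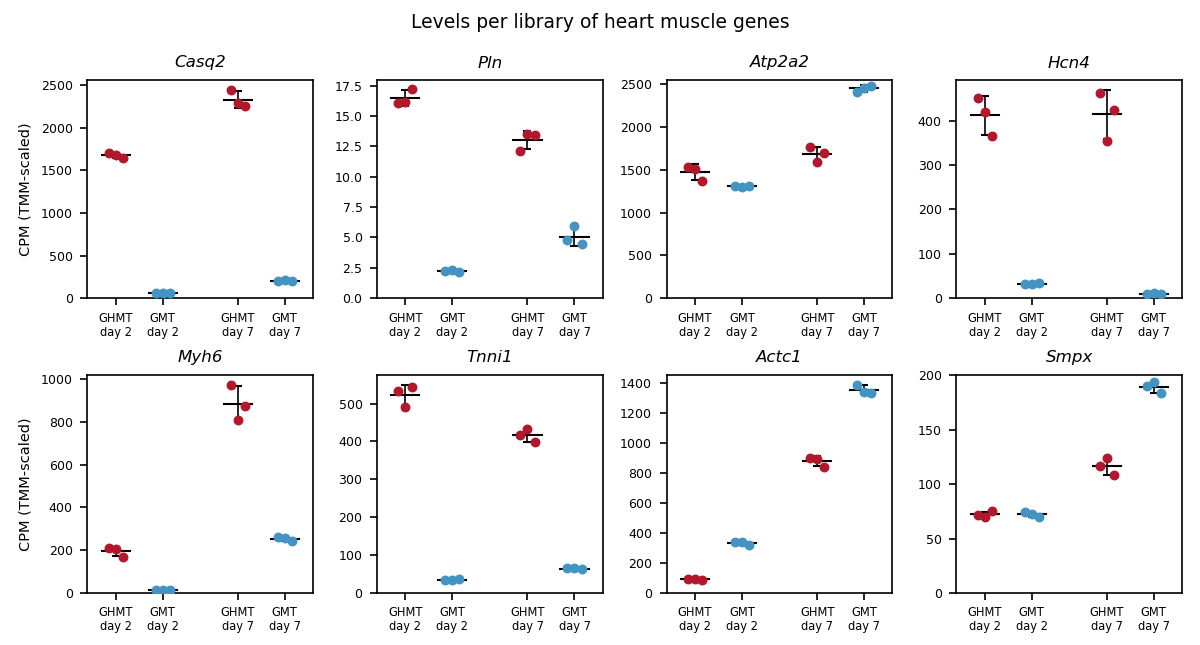
TMM-scaled CPM of 8 heart muscle genes in GHMT (red) and GMT (blue) libraries at day 2 and day 7; points are the 3 libraries of a group, the long bar is their mean and the error bar their SD. Casq2, Pln, Myh6 and Tnni1 are higher in GHMT cells at both days, and Actc1 is lower at both. Hcn4 stays level in GHMT cells while it is lower at day 7 than at day 2 in GMT cells. Atp2a2 is slightly higher in GHMT cells at day 2 and lower at day 7, and Smpx separates at day 7.

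Smooth muscle and myofibroblast genes were mostly higher in GHMT cells at both days, with a lead that was mostly smaller at day 7. Of 21 tested, 18 were higher and 3 lower at day 2 (85.7% and 14.3%, beside 23.1% and 21.7% of all genes), and 16 were higher and 2 lower at day 7 (76.2% and 9.52%, beside 18.7% and 18.8%). The difference of differences was called for 2 higher and 12 lower (9.52% and 57.1% of the list, beside 7.58% and 9.06% of all genes), with a median log2 fold change of 0.79 at day 2 and 0.48 at day 7. Acta2, smooth muscle alpha-actin, had 4098, 4057 and 4014 CPM in GHMT libraries at day 2, against 1339, 1362 and 1379 CPM in GMT libraries. At day 7, Acta2 had 3256, 3398 and 3223 CPM in GHMT libraries, against 1979, 1817 and 1799 CPM in GMT libraries. The GHMT level stood lower at day 7 than at day 2 and the GMT level higher, and the lead of 1.58 ± 0.06 was 0.82 ± 0.06 at day 7 (difference of differences -0.76 ± 0.08 (adjusted p = 2.01e-07)). Lmod1, a leiomodin that nucleates actin in smooth muscle, had 98.2, 98.9 and 92.9 CPM in GHMT libraries at day 2, against 33.4, 34.3 and 31.3 CPM in GMT libraries. At day 7, Lmod1 had 89.9, 84.2 and 90.96 CPM in GHMT libraries, against 49.95, 46.3 and 49.6 CPM in GMT libraries. Actg2, the enteric actin, had a lead of 1.303 ± 0.06 and 0.49 ± 0.06. Cnn1, calponin, had 28.5, 26.9 and 28.8 CPM in GHMT libraries at day 2, against 13.7, 13.3 and 14.3 CPM in GMT libraries. At day 7, Cnn1 had 72.3, 79.3 and 86.3 CPM in GHMT libraries, against 73, 70.04 and 73.2 CPM in GMT libraries. Its lead of 1.03 ± 0.08 at day 2 was not called at day 7 (0.14 ± 0.07, adjusted p = 0.131). The 2 members with a higher difference of differences were Des, desmin, at -0.66 ± 0.06 and -0.10 ± 0.06, and Pdlim3, a Z-disc protein, at -0.63 ± 0.04 and -0.37 ± 0.04; both were lower in GHMT cells at day 2.

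Fibroblast and matrix genes went mainly the other way. Of 49 tested, the difference of differences was called for 22 higher and 6 lower (44.9% and 12.2% of the list, beside 7.58% and 9.06% of all genes), and the median log2 fold change was 0.08 at day 2 and 0.31 at day 7. At day 2, 22 were higher in GHMT cells and 15 lower (44.9% and 30.6%, beside 23.1% and 21.7% of all genes), and at day 7, 30 were higher and 6 lower (61.2% and 12.2%, beside 18.7% and 18.8%). Thbs2, a matricellular thrombospondin, had 174, 176 and 176 CPM in GHMT libraries at day 2, against 346, 334 and 351 CPM in GMT libraries. At day 7, Thbs2 had 189.6, 183 and 206 CPM in GHMT libraries, against 208, 212 and 205 CPM in GMT libraries. The deficit of -0.97 ± 0.05 at day 2 was not called at day 7 (-0.11 ± 0.05, adjusted p = 0.102; difference of differences 0.86 ± 0.07 (adjusted p = 6.6e-09)). Lox, which crosslinks collagen and elastin, had 484, 514 and 498 CPM in GHMT libraries at day 2, against 554, 572 and 566 CPM in GMT libraries. At day 7, Lox had 627, 606 and 674 CPM in GHMT libraries, against 487, 495 and 462 CPM in GMT libraries. Lox changed sides under 2-fold (difference of differences 0.58 ± 0.07 (adjusted p = 3.21e-06)). Col14a1, a fibril-associated collagen, had the smallest adjusted p of those that were lower, with 103, 117 and 96.4 CPM in GHMT libraries at day 2, against 17.96, 17.3 and 18.4 CPM in GMT libraries. At day 7, Col14a1 had 19.3, 16.4 and 20.3 CPM in GHMT libraries, against 10.7, 11.7 and 13.9 CPM in GMT libraries. Its lead in GHMT cells was 2.56 ± 0.10 at day 2 and 0.62 ± 0.11 at day 7. Tnc, tenascin C, had 2784, 2743 and 2398 CPM in GHMT libraries at day 2, against 738, 725 and 763 CPM in GMT libraries. At day 7, Tnc had 1522, 1389 and 1586 CPM in GHMT libraries, against 900.5, 815 and 815 CPM in GMT libraries. The Tnc lead was 1.83 ± 0.09 and 0.83 ± 0.08.

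Interferon response genes were raised in GHMT cells at day 2 and mostly not at day 7. Of 37 tested, 33 were higher and 0 lower at day 2 (89.2% higher, beside 23.1% of all genes), and 4 were higher and 1 lower at day 7 (10.8% and 2.7%, beside 18.7% and 18.8%). The difference of differences was called for 0 higher and 15 lower (0% and 40.5% of the list, beside 7.58% and 9.06% of all genes), with a median log2 fold change of 0.79 at day 2 and 0.06 at day 7. The summed level of the list was 6964 to 8236 CPM in GHMT libraries and 4380 to 4853 CPM in GMT libraries at day 2, and 2717 to 3003 CPM in GHMT libraries and 2675 to 3018 CPM in GMT libraries at day 7. The sums did not overlap at day 2 and overlapped at day 7, where both cocktails were below their day 2 level. Oasl1, an antiviral oligoadenylate synthetase-like protein, had 110.2, 81.5 and 109 CPM in GHMT libraries at day 2, against 30.6, 28.2 and 24.1 CPM in GMT libraries. At day 7, Oasl1 had 7.901, 10.9 and 8.73 CPM in GHMT libraries, against 9.88, 11.3 and 11.3 CPM in GMT libraries. Its lead of 1.85 ± 0.16 at day 2 was -0.23 ± 0.20 at day 7 (difference of differences -2.09 ± 0.25 (adjusted p = 1.28e-06)). Irf7, the factor that amplifies type I interferon, had 453, 439 and 551 CPM in GHMT libraries at day 2, against 228, 225 and 208 CPM in GMT libraries. At day 7, Irf7 had 118, 140.1 and 117 CPM in GHMT libraries, against 157, 183 and 145 CPM in GMT libraries. This gave Irf7 a difference of differences of -1.495 ± 0.24 (adjusted p = 7.31e-05). Rsad2, viperin, stood at 1.796 ± 0.23 and 0.09 ± 0.24, and Oas1a, an oligoadenylate synthetase, at 0.87 ± 0.13 and -0.31 ± 0.15, day 2 first; neither was called at day 7 (adjusted p = 0.805 and 0.103). The count of 15 depended on the fit: it was 34 when only the 12 libraries were fitted, 33 with no filter on low counts, and 9 without GHMT day 2 replicate 3, without GMT day 7 replicate 2, or without both furthest libraries together.

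Inflammatory genes, 25 tested, had 3 members higher and 5 lower for the difference of differences (12% and 20% of the list, beside 7.58% and 9.06% of all genes). Cxcl12, a chemokine of stromal cells, had 298, 275 and 269.7 CPM in GHMT libraries at day 2, against 43.95, 39.6 and 42.9 CPM in GMT libraries. At day 7, Cxcl12 had 189, 183 and 191 CPM in GHMT libraries, against 43.4, 42.97 and 55.5 CPM in GMT libraries. Its lasting lead was smaller at day 7, at 2.74 ± 0.07 and 1.99 ± 0.07. The others that were lower were Ccl5, described above among early only genes, the adhesion molecule Vcam1 (-0.50 ± 0.08 (adjusted p = 2.44e-05)), the cytokine Il6 (-1.58 ± 0.32 (adjusted p = 0.000873)) and the monocyte chemokine Ccl2 (-0.59 ± 0.16 (adjusted p = 0.00924)). Il6 and Ccl2 kept a lead in GHMT cells at both days, at 3.903 and 1.83 at day 2 and 2.33 and 1.23 at day 7. Icam1, an adhesion molecule for leukocytes, had 45.8, 46.8 and 47.5 CPM in GHMT libraries at day 2, against 54.3, 54.05 and 52.04 CPM in GMT libraries. At day 7, Icam1 had 60.1, 62.6 and 62.3 CPM in GHMT libraries, against 40.6, 45.3 and 41.4 CPM in GMT libraries. Icam1 changed sides under 2-fold (difference of differences 0.73 ± 0.07 (adjusted p = 1.72e-08)). Also higher were Lif, a cytokine of the interleukin 6 family (0.43 ± 0.10 (adjusted p = 0.00213)), and Lcn2, which binds bacterial siderophores (0.86 ± 0.27 (adjusted p = 0.0275)). Lcn2 lost its call when any 1 of 5 of the 12 libraries was left out, or both furthest ones together; with no filter on low counts the 3 became 5.

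Among metabolic genes, called differences of differences were mostly lower. For glycolysis the difference of differences was called for 2 higher and 14 lower of 23 tested (8.7% and 60.9% of the list, beside 7.58% and 9.06% of all genes), with a median log2 fold change of 0.21 at day 2 and -0.09 at day 7. Gapdh had 259, 272 and 277 CPM in GHMT libraries at day 2, against 232, 225 and 242 CPM in GMT libraries. At day 7, Gapdh had 268, 279 and 270.5 CPM in GHMT libraries, against 309, 315 and 307 CPM in GMT libraries. The enzyme gene stood 0.21 higher at day 2 and -0.19 at day 7 on the log2 scale, with a difference of differences of -0.39 ± 0.07 (adjusted p = 0.000318); Gapdh has many pseudogene copies and its reads are uncertain. Eno3, the muscle enolase, had 69.7, 66.8 and 76.2 CPM in GHMT libraries at day 2, against 122, 119 and 126 CPM in GMT libraries. At day 7, Eno3 had 87.2, 89.8 and 89.1 CPM in GHMT libraries, against 282, 286 and 293 CPM in GMT libraries. Its deficit in GHMT cells was -0.79 ± 0.07 at day 2 and -1.69 ± 0.07 at day 7. Hk1, a hexokinase, stood at 0.01 ± 0.05 and -0.44 ± 0.05, and Pdk1, which shuts pyruvate out of the citric acid cycle, at 1.09 ± 0.05 and 0.63 ± 0.05. The 2 that were higher were Hk2, another hexokinase (0.32 ± 0.07 (adjusted p = 0.00253)), and Slc2a3, a glucose transporter (0.54 ± 0.17 (adjusted p = 0.0299)); the count was 1 when any 1 of 8 of the 12 libraries was left out.

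For fatty acid oxidation, 0 members were higher and 15 lower of 26 tested (0% and 57.7% of the list, beside 7.58% and 9.06% of all genes), with medians of -0.11 at day 2 and -0.25 at day 7. Ppargc1a, the coactivator of mitochondrial biogenesis, had 10.7, 11.5 and 9.46 CPM in GHMT libraries at day 2, against 5.53, 4.57 and 4.42 CPM in GMT libraries. At day 7, Ppargc1a had 5.38, 4.98 and 5.74 CPM in GHMT libraries, against 7.98, 7.11 and 8.49 CPM in GMT libraries. GHMT libraries were all above GMT libraries at day 2 and all below them at day 7, with differences of 1.12 ± 0.12 and -0.56 ± 0.12. Lpl, lipoprotein lipase, had 92.6, 89.5 and 94.3 CPM in GHMT libraries at day 2, against 32.5, 30.3 and 30.1 CPM in GMT libraries. At day 7, Lpl had 60.3, 63.1 and 59.5 CPM in GHMT libraries, against 31.6, 31.7 and 29.9 CPM in GMT libraries. Its lead was smaller late (-0.60 ± 0.11 (adjusted p = 0.000349)). Pparg stood at -0.19 ± 0.09 and -0.81 ± 0.08, and Etfdh, which passes electrons to ubiquinone, at 0.23 ± 0.04 and -0.13 ± 0.04. For sterol and fatty acid synthesis, 0 members were higher and 13 lower of 27 tested (0% and 48.1% of the list, beside 7.58% and 9.06% of all genes), with medians of -0.10 and -0.30. In GHMT cells 12 of the 27 were lower at day 2 (44.4%, beside 21.7% of all genes) and 21 at day 7 (77.8%, beside 18.8%). Scd1, which makes oleate, had 805, 753 and 796 CPM in GHMT libraries at day 2, against 572, 545 and 591 CPM in GMT libraries. At day 7, Scd1 had 753, 647 and 733 CPM in GHMT libraries, against 839.5, 805 and 847 CPM in GMT libraries. Srebf2, the master factor of sterol genes, had 267, 258 and 251 CPM in GHMT libraries at day 2, against 246, 232 and 245 CPM in GMT libraries. At day 7, Srebf2 had 206, 196 and 205 CPM in GHMT libraries, against 265, 259 and 267 CPM in GMT libraries. Their differences of differences were -0.69 ± 0.08 (adjusted p = 4.53e-07) and -0.48 ± 0.09 (adjusted p = 0.000236). Msmo1 and Insig1, a sterol enzyme and a sterol sensor, followed with -0.60 ± 0.09 and -0.40 ± 0.07. Nuclear genes of oxidative phosphorylation, 44 tested, were lower in GHMT cells for 8 members at day 2 (18.2%, below the 21.7% of all genes) and 22 at day 7 (50%, beside 18.8%), but the difference of differences was called for only 2 (4.55%, beside 16.6% of all genes), both lower. These were Uqcrc2 of complex III (-0.26 ± 0.05 (adjusted p = 0.000677)) and Atp5b of the ATP synthase (-0.19 ± 0.07 (adjusted p = 0.0472)); the count ran from 1 to 4 with 1 library left out, 4 being without GHMT day 7 replicate 2, and was 9 when only the 12 libraries were fitted and 11 without AGHMT day 2 replicate 3.

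**Figure D4:**
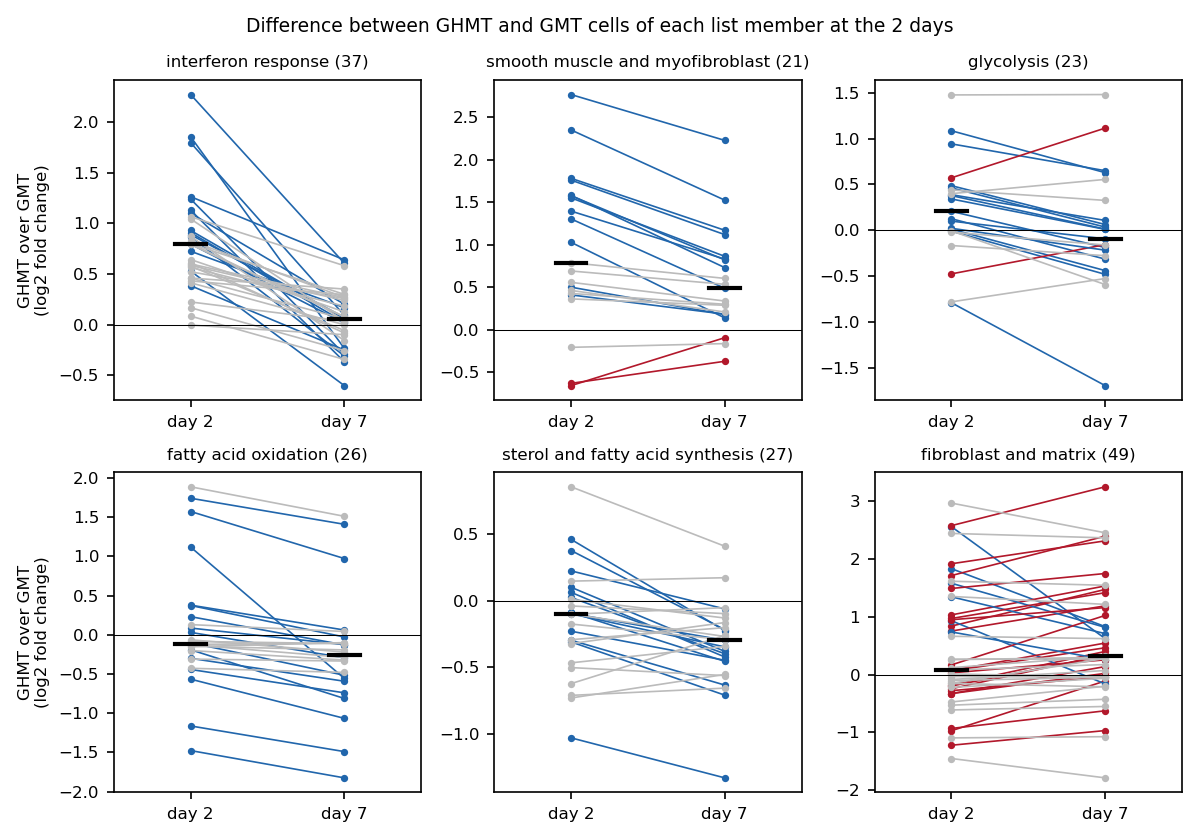
Log2 fold change of GHMT over GMT of each tested member of 6 gene lists at day 2 and day 7, joined by a line; blue and red lines have a called difference of differences (lower and higher), grey lines do not, and black bars are the list medians. Medians of the interferon response list stand at 0.79 and 0.06 and those of the fibroblast and matrix list at 0.08 and 0.31.

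Genes of the sympathetic neuron programme, in which Hand2 acts during development, were mixed. Of 17 tested, 5 were higher and 2 lower for the difference of differences (29.4% and 11.8% of the list, beside 7.58% and 9.06% of all genes). Besides Dbh, the 5 were Scg2, secretogranin of dense-core vesicles, Sox11, a neural transcription factor, Eya1 (1.02 ± 0.26 (adjusted p = 0.00672)) and Chga, chromogranin A (1.74 ± 0.45 (adjusted p = 0.00822)). Scg2 had 27.7, 27.1 and 26.1 CPM in GHMT libraries at day 2, against 626, 643 and 618 CPM in GMT libraries. At day 7, Scg2 had 153, 145 and 139.9 CPM in GHMT libraries, against 1296, 1308 and 1184 CPM in GMT libraries. Its deficit in GHMT cells was lasting and smaller at day 7, at -4.54 ± 0.07 and -3.11 ± 0.07, with a difference of differences of 1.43 ± 0.09 (adjusted p = 4.32e-11). Sox11 had 24.1, 22.4 and 23.6 CPM in GHMT libraries at day 2, against 32.6, 33.2 and 33.04 CPM in GMT libraries. At day 7, Sox11 had 70.6, 70.2 and 72.4 CPM in GHMT libraries, against 51.3, 46.4 and 48.1 CPM in GMT libraries. GHMT libraries were thus below GMT libraries at day 2 and above them at day 7 (1.04 ± 0.07 (adjusted p = 3.92e-11) for the difference of differences). The 2 that were lower were Ddc, the decarboxylase upstream of Dbh in the same pathway, at 0.99 ± 0.10 and -0.24 ± 0.11, and Ret, a receptor tyrosine kinase (-1.27 ± 0.25 (adjusted p = 0.000677)). Dbh and Ddc, which act in the same pathway, therefore had differences of differences of opposite sign.

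Of the signalling lists, the Wnt pathway had 6 members higher and 5 lower of 27 tested (22.2% and 18.5% of the list, beside 7.58% and 9.06% of all genes). Of the 6, the secreted Wnt inhibitor Wif1 had the smallest adjusted p, with 10.9, 9.57 and 10.1 CPM in GHMT libraries at day 2, against 9.405, 9.42 and 10.0 CPM in GMT libraries. At day 7, Wif1 had 93.7, 99.5 and 94.7 CPM in GHMT libraries, against 50.7, 57.2 and 53.2 CPM in GMT libraries. Its lead was 0.09 ± 0.09 at day 2 and 0.84 ± 0.06 at day 7 (difference of differences 0.75 ± 0.11 (adjusted p = 1.44e-05)). Fzd8, a Wnt receptor, had 84.4, 84.01 and 81.2 CPM in GHMT libraries at day 2, against 18.2, 20.3 and 18.8 CPM in GMT libraries. At day 7, Fzd8 had 26.5, 27.8 and 24.6 CPM in GHMT libraries, against 14.5, 11.7 and 12.6 CPM in GMT libraries. Its lasting lead was 2.12 ± 0.07 and 1.03 ± 0.07. Fzd7 followed with 1.36 ± 0.04 and 0.85 ± 0.04, and the ligand Wnt5a changed sides, at 0.49 ± 0.04 and -0.20 ± 0.04 (difference of differences -0.69 ± 0.06 (adjusted p = 3.67e-09)). The others of the 5 were the receptor Fzd2 (-0.31 ± 0.08 (adjusted p = 0.00455)) and the ligand Wnt5b (-0.61 ± 0.17 (adjusted p = 0.0127)). EGF receptor and ERK response genes had 7 higher and 3 lower of 30 tested (23.3% and 10% of the list, beside 7.58% and 9.06% of all genes). Dusp6, a phosphatase that ERK induces against itself, had 27.5, 24.6 and 25.3 CPM in GHMT libraries at day 2, against 59.7, 60.2 and 57.7 CPM in GMT libraries. At day 7, Dusp6 had 84.3, 86.7 and 87.7 CPM in GHMT libraries, against 140.5, 138 and 133 CPM in GMT libraries. Its deficit was -1.198 ± 0.05 and -0.67 ± 0.05, that of Myc -1.05 ± 0.07 and -0.37 ± 0.07, and Spry4, a feedback inhibitor, and Egr1, an immediate early gene, led by 1.74 ± 0.04 and 0.68 ± 0.05 at day 2 and 1.33 ± 0.04 and 1.17 ± 0.05 at day 7. Besides Spry4, the 3 that were lower were the phosphatase Dusp1 (-0.57 ± 0.09 (adjusted p = 3.62e-05)) and Btc, betacellulin, an EGF receptor ligand (-1.23 ± 0.30 (adjusted p = 0.00422)). The IGF and insulin axis had 2 higher and 5 lower of 21 tested (9.52% and 23.8% of the list, beside 7.58% and 9.06% of all genes), the 2 being 1 without GMT day 2 replicate 1 or GHMT day 7 replicate 1. H19, the imprinted noncoding RNA next to Igf2, had 10880, 11000 and 10560 CPM in GHMT libraries at day 2, against 215, 209 and 235 CPM in GMT libraries. At day 7, H19 had 966, 852 and 917 CPM in GHMT libraries, against 31.1, 31.01 and 42.1 CPM in GMT libraries. It was lower at day 7 than at day 2 under both cocktails and kept a lead of 5.62 ± 0.11 and 4.71 ± 0.11 (difference of differences -0.91 ± 0.13 (adjusted p = 1.34e-05)). Igf1 had 24.5, 23.4 and 21.4 CPM in GHMT libraries at day 2, against 9.999, 9.05 and 11.2 CPM in GMT libraries. At day 7, Igf1 had 12.1, 12.7 and 12.9 CPM in GHMT libraries, against 10.3, 11.6 and 10.5 CPM in GMT libraries. Igf1 was called at day 2 alone, and Grb10, an adaptor that dampens the insulin receptor, stood at 0.60 ± 0.05 and 0.00 ± 0.05. Igfbp7, a binding protein, was lower at day 2 (-0.27 ± 0.06) and slightly higher at day 7 (0.14 ± 0.06). The other higher member was Irs2, an insulin receptor substrate (0.51 ± 0.14 (adjusted p = 0.0127)), and the other lower ones were Pik3ip1, an inhibitor of PI3 kinase (-0.45 ± 0.09 (adjusted p = 0.000496)), and Igf2bp3, an RNA-binding protein (-0.36 ± 0.11 (adjusted p = 0.022)). Igf2bp3 lost its call when any 1 of 3 of the 12 libraries was left out, or both furthest ones together.

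Summed levels of marker lists of other cell types are given beside these results, and their part in them was not tested. Macrophage markers summed to 43.1 to 50.6 CPM in GHMT and 51.8 to 66.97 CPM in GMT libraries at day 2, and to 71.7 to 77.1 CPM and 66.02 to 80.9 CPM at day 7, over 21 genes, none of them at 0 in all 12 libraries. Endothelial markers summed to 197 to 219 CPM in GHMT and 278 to 288 CPM in GMT libraries at day 2, and to 305 to 318 CPM and 313 to 332 CPM at day 7, over 17 genes, with Cldn5 at 0 in all 12. The members did not share the day 2 gap of this sum as a set. Of 13 tested, 3 were higher and 3 lower in GHMT cells at day 2 (23.1% and 23.1%, beside 23.1% and 21.7% of all genes). Their median log2 fold change at day 2 was -0.09. Epithelial and mesothelial markers summed to 70.8 to 73.4 CPM in GHMT and 67.1 to 69.8 CPM in GMT libraries at day 2, and to 635 to 687 CPM and 260.3 to 279 CPM at day 7, over 15 genes. The day 7 gap in this sum was not shared by the members as a set. Of 10 tested, 5 were higher and 5 lower in GHMT cells at day 7 (50% and 50%, beside 18.7% and 18.8% of all genes). Their median log2 fold change at day 7 was -0.04. Neural and glial markers summed to 185 to 186 CPM in GHMT and 219 to 226 CPM in GMT libraries at day 2, and to 385 to 401 CPM and 325 to 355 CPM at day 7, over 18 genes. Here too the members did not follow the day 7 sum. Of 14 tested, 3 were higher and 5 lower in GHMT cells at day 7 (21.4% and 35.7%, beside 18.7% and 18.8% of all genes), with a median of -0.155. Cartilage and bone markers summed to 538 to 598 CPM in GHMT and 771 to 807 CPM in GMT libraries at day 2, and to 619 to 732 CPM and 454 to 469 CPM at day 7, over 18 genes. Col10a1, given above, made up most of that sum in GMT libraries at day 2; over the other 17 genes it was 473 to 526 CPM in GHMT and 299.9 to 317 CPM in GMT libraries at day 2, and 492 to 603 CPM and 341 to 361 CPM at day 7, so that GHMT libraries stood above GMT libraries at both days. Fibroblast and matrix genes, the markers of the starting cells, summed to 58600 to 63140 CPM in GHMT and 52060 to 53040 CPM in GMT libraries at day 2, and to 46990 to 50520 CPM and 35820 to 37650 CPM at day 7, so the cultures carried the markers of their label.

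**Figure D5:**
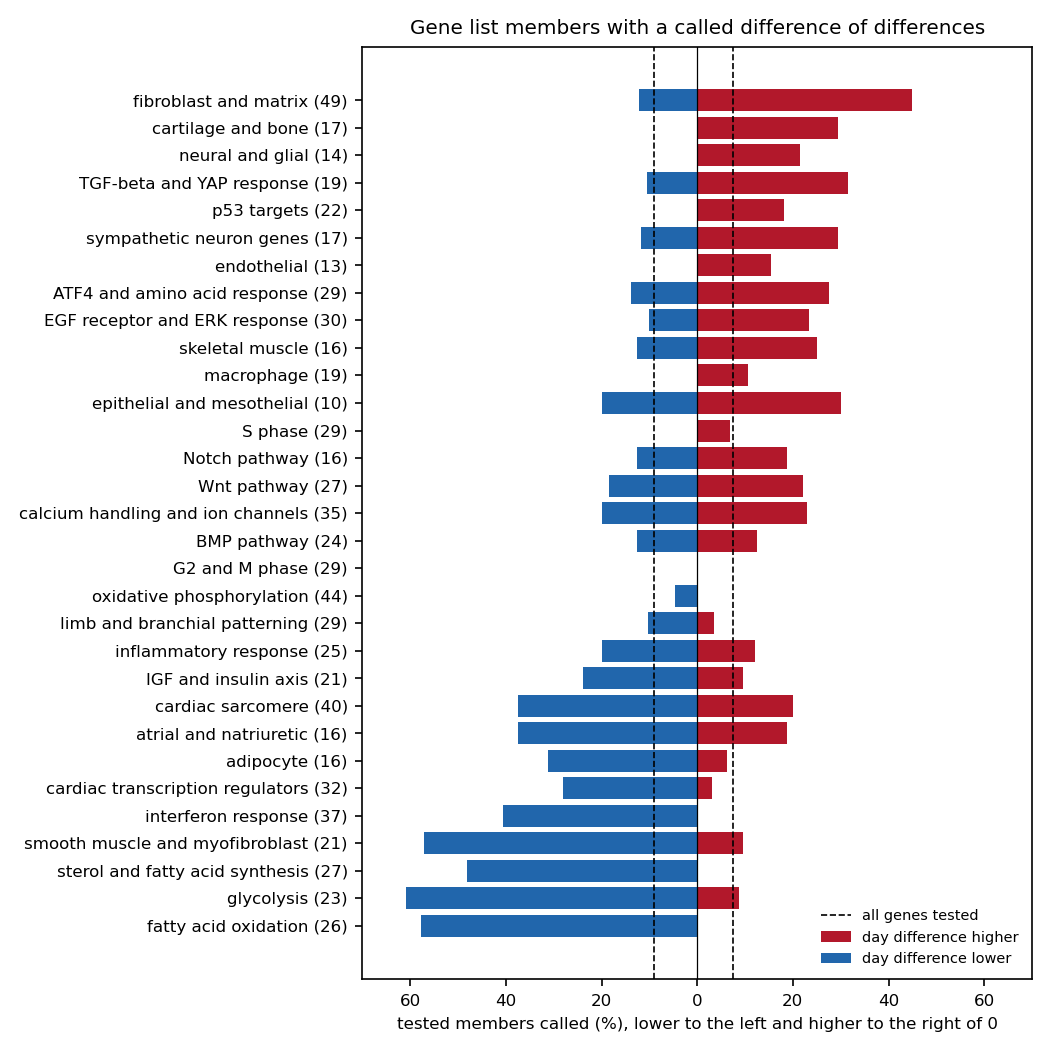
Percent of the tested members of each gene list (number in brackets) with a called difference of differences, lower to the left in blue and higher to the right in red; dashed lines mark 9.06% lower and 7.58% higher over all 17576 tested genes. Glycolysis (60.9%), fatty acid oxidation (57.7%), smooth muscle and myofibroblast genes (57.1%) and sterol synthesis (48.1%) lie furthest towards lower, and fibroblast and matrix genes (22 higher, 6 lower of 49) towards higher.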

How the data were processed

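RNA of transduced mouse fibroblasts was sequenced in 24 libraries, 3 in each of 8 groups, and groups were taken from the labels. The submitters' processing notes list, in no order, featureCounts (1.4.6), DESeq2 (1.6.3), Trim Galore (0.4.1) and HISAT2 (2.0.1), and the build GRCm38 (mm10). Annotation and strandedness were not given in the sources used here, so overlapping, antisense and near-identical genes may share reads. The authors deposited raw whole-number counts of reads per gene, in which all 37 mitochondrial genes are at 0. A deposited table of log2 values was not used.

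Genes kept by filterByExpr over the 8 groups were tested with edgeR 4.0.16 in R 4.3.3. The test was the quasi-likelihood F test with TMM factors and a mean for each of the 8 groups (24 libraries, leaving 16 residual degrees of freedom), two-sided, with Benjamini-Hochberg adjustment over all 17576 genes. Contrasts were GHMT over GMT at each day and the difference of both. Replicates were compared for near-copies, and none was found: chi-square over genes, per degree of freedom, ran from 1.49 to 41.7. The highest value was between AGHMT day 2 replicates 1 and 3. This check can find copied libraries but cannot tell separate cultures from repeat libraries of the same RNA. Replicate numbers did not consistently pair libraries across groups. Totals of 29345957 to 37495178 counts leave genes with a few reads imprecise.

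The members and gene lists were chosen with earlier results of these data known. Genes named are the 5 cocktail factors and, per pattern and direction, the 4 with the largest difference of differences (for lasting genes, the largest smaller difference of both days). These had 5 CPM or more in the highest group and no overlap of GHMT and GMT libraries at the days concerned, and unnamed models and pseudogenes were passed over. Up to 4 members per described list by adjusted p, and members that account for counts of 5 or fewer, were added. Hcn4 and the gene families were picked after their values were seen. Promoter windows came from RefSeq on GRCm38.p6 and gene positions from GENCODE M21. The code was tested on simulated counts. Alternatives were RLE size factors, DESeq2 1.42.0, a table without the filter, a fit of the 12 libraries alone, single libraries left out, a block for replicate number, and fold minimums of none, 1.5 and 4. Leaving out the 2 of the 12 contrast libraries most distant from their groups (GHMT day 2 replicate 3 and GHMT day 7 replicate 2), and the most distant of all 24 (AGHMT day 2 replicate 3), were alternatives added after seeing the data.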

Additional observations from a re-analysis of the deposited data

Results flagged for a closer look

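Results are listed here because the GHMT over GMT difference at day 7 differed from that at day 2 by a test of that difference itself, edgeR's quasi-likelihood test with Benjamini-Hochberg adjustment. Over all 17576 genes this held for 1332 higher and 1593 lower. With 3 libraries per group, no result was flagged for a single outlying library. Whole libraries were compared with their groups, and those furthest off were left out in alternatives given below. Values are log2 differences of differences, positive where GHMT over GMT stood higher at day 7.

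Early only genes with an excess in GHMT cells had -2.42 for Unc5c, -2.28 for Ccl5, -2.16 for Tgtp2 and -2.14 for Nxf7, and those with a deficit had 3.17 for Nefm, 2.57 for Fndc1, 1.95 for Ces2e and 1.82 for Scara5. Late only genes had 2.66 for Padi2, 2.29 for Dbh, 1.996 for Plekha6 and 1.89 for Izumo1r on the higher side and -2.23 for Ndnf, -1.81 for Podxl, -1.72 for Tmem158 and -1.58 for Kcnj3 on the lower side. The lasting genes had 0.29 for Nt5e, the others of that set not being called. Reversed genes had -3.43 for H2-Q10, -2.52 for Anpep, -1.87 for Slfn5 and -1.77 for Unc45b where they were higher first, and 3.11 for Col10a1, 2.83 for Serpina3n, 2.44 for Gpr83 and 2.003 for Sbsn where they were lower first.

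Among the cocktail factors the value was -0.21 for Gata4. Sarcomere genes gave -1.95 for Myh6, 1.25 for Actc1, -1.198 for Tnni1 and -0.70 for Smpx. Calcium handling genes and channels gave -1.31 for Casq2, -1.52 for Pln, -0.71 for Atp2a2 and 1.66 for Hcn4. Cardiac regulators gave 0.51 for Tbx2, -0.37 for Smarcd3, -0.77 for Foxc1 and -0.90 for Hopx, and atrial and natriuretic genes 0.98 for Sln, -0.73 for Corin, -0.72 for Nppb, 0.54 for Gja5 and 0.64 for Nppa. Smooth muscle genes gave -0.69 for Lmod1, -0.76 for Acta2, -0.82 for Actg2, -0.89 for Cnn1, 0.56 for Des and 0.26 for Pdlim3, and fibroblast genes -1.94 for Col14a1, 0.86 for Thbs2, -1.002 for Tnc and 0.58 for Lox.

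Interferon genes gave -2.09 for Oasl1, -1.495 for Irf7, -1.18 for Oas1a and -1.71 for Rsad2, and inflammatory genes 0.73 for Icam1, -0.75 for Cxcl12, -0.50 for Vcam1, -1.58 for Il6, -0.59 for Ccl2, 0.43 for Lif and 0.86 for Lcn2. Glycolysis gave -0.90 for Eno3, -0.46 for Pdk1, -0.45 for Hk1, -0.39 for Gapdh, 0.32 for Hk2 and 0.54 for Slc2a3, fatty acid oxidation -1.68 for Ppargc1a, -0.36 for Etfdh, -0.60 for Lpl and -0.62 for Pparg, sterol and fatty acid synthesis -0.69 for Scd1, -0.60 for Msmo1, -0.48 for Srebf2 and -0.40 for Insig1, and oxidative phosphorylation -0.26 for Uqcrc2 and -0.19 for Atp5b. Sympathetic neuron genes gave 1.04 for Sox11, 1.43 for Scg2, -1.23 for Ddc, 1.02 for Eya1, 1.74 for Chga and -1.27 for Ret. The ERK list gave 0.53 for Dusp6, 0.68 for Myc, -0.41 for Spry4, 0.50 for Egr1, -0.57 for Dusp1 and -1.23 for Btc, the IGF list -0.60 for Grb10, -0.98 for Igf1, -0.91 for H19, 0.42 for Igfbp7, -0.45 for Pik3ip1, 0.51 for Irs2 and -0.36 for Igf2bp3, and the Wnt list -0.69 for Wnt5a, -1.09 for Fzd8, -0.51 for Fzd7, 0.75 for Wif1, -0.31 for Fzd2 and -0.61 for Wnt5b.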

How the results depend on the processing

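Counts of genes called for the difference of differences (1332 higher and 1593 lower) stayed within 1.5 times under every planned setting: 1351 and 1551 by DESeq2, 1389 and 1517 with RLE size factors, 1483 and 1428 with no filter, and 1676 and 2069 with only the 12 libraries. Without AGHMT day 2 replicate 3, which enters only the estimate of spread and stood furthest from its group (SD of log2 deviations 0.223, against 0.0724 to 0.123 for the 12), 1751 were higher and 2139 lower, and these included all 2925 genes called with it. With each of the 12 libraries left out in turn, the higher count ran from 1119 to 1227, the lower from 1348 to 1467, day 2 calls from 6997 to 7962, day 7 calls from 5790 to 6605, early only genes from 382 to 406, late only genes from 181 to 207, lasting genes from 885 to 902 and reversed genes from 40 to 50. The patterns depend on the fold minimum by construction: with none they held 909 early only, 497 late only, 4587 lasting and 276 reversed genes, with 1.5-fold 668 early only, 1632 lasting and 121 reversed, and with 4-fold 147, 84, 293 and 9. The same replicate number did not consistently pair libraries: correlations of same-numbered deviations ran from -0.485 to 0.403, with 6 of 18 over 0.1 and 8 of 18 highest with their own number. The replicate block gave 1337 higher and 1574 lower, with 2835 genes called in both fits. This block moved 1 list count described here by over 1.5 times, oxidative phosphorylation (1 in place of 2). Of 115 named genes over 19 settings, no difference of differences changed sign where called, 45 of the values lost and 2 gained the call, mostly Gata4, Atp5b, Slc2a3 and Lcn2; the cause was not tested. Shifts of the median of all genes between settings were at most 0.023 on the log2 scale. Depth limits genes under about 1 CPM, such as Sfrp5 in GMT cells.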

Other observations

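Some gene families had many members with a called difference of differences; they were picked after their values were seen and carry no test. Of the 12 tested Serpina3 genes, which lie in a cluster on chromosome 12 and encode secreted protease inhibitors except for 4 annotated pseudogenes, 10 were higher and 0 lower for the difference of differences, beside 7.58% and 9.06% of all genes. Of them 6 were reversed, beside 0.279% of all genes, and 3 of the 10 and 3 of the 6 were pseudogenes. Their median log2 fold change of GHMT over GMT was -0.74 at day 2 and 0.59 at day 7. Serpina3b averaged 8.01 CPM in GHMT and 11.1 CPM in GMT libraries at day 2, and 29.6 CPM in GHMT and 13.4 CPM in GMT libraries at day 7. The members are similar copies, so reads may be shared between them.

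Of 17 tested class I histocompatibility genes on chromosome 17, a family that presents peptides to T cells, 3 are annotated as pseudogenes. At day 2, 12 were higher in GHMT cells and 0 lower, beside 23.1% and 21.7% of all genes, and at day 7, 0 were higher and 2 lower, beside 18.7% and 18.8%. The difference of differences was lower for 11 and higher for 0, beside 9.06% and 7.58% of all genes; the pseudogenes account for 3 of the 12 and 2 of the 11. H2-K1 averaged 516 CPM in GHMT and 208 CPM in GMT libraries at day 2, and 266 CPM in GHMT and 236 CPM in GMT libraries at day 7. H2-D1 averaged 516 CPM in GHMT and 283 CPM in GMT libraries at day 2, and 309 CPM in GHMT and 364 CPM in GMT libraries at day 7. These genes also share reads with similar copies.

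All 3 neurofilament genes, which build the axon skeleton, had a higher difference of differences, beside 7.58% of all genes. Nefl averaged 0.221 CPM in GHMT and 10.0 CPM in GMT libraries at day 2, and 2.20 CPM in GHMT and 5.58 CPM in GMT libraries at day 7. The 3 tested Ces2 carboxylesterases were also higher for the difference of differences, beside the same 7.58% of all genes. Ces2f averaged 1.55 CPM in GHMT and 2.11 CPM in GMT libraries at day 2, and 3.54 CPM in GHMT and 0.709 CPM in GMT libraries at day 7.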
